A study of Mus musculus with 10 samples.

Results

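Of the 27998 genes in the E14Tg2a count table and the 32285 genes in the R1 count table, 6 were chosen by name for their place in Nodal signalling. They are the ligands *Nodal* and *Gdf3*, the co-receptor *Tdgf1* (also called Cripto) and the secreted inhibitors *Lefty1*, *Lefty2* and *Cer1*. Each gene has 1 row in both tables. Their unique molecular identifiers (UMIs, each tagging 1 captured RNA molecule) were summed over the cells of a library, or of a set of cells within it, and are given as counts per 1000000 UMIs of those cells (CPM).

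Nodal is a TGF-beta family ligand that binds activin receptors together with the co-receptor CRIPTO and acts through SMAD2, SMAD3 and FOXH1. In the mouse epiblast it maintains pluripotency and patterns the embryo, and it induces its own gene and those of its inhibitors LEFTY1 and LEFTY2, which makes a feedback loop. CER1 (Cerberus-like) is a secreted antagonist known from the anterior visceral endoderm and the anterior definitive endoderm, and GDF3 is a related ligand of pluripotent cells. The germline precursors of the mouse arise at the posterior proximal epiblast, where BMP4 from extraembryonic tissue and Nodal signalling meet.

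The study followed mouse embryonic stem cells (ESC) through differentiation into primordial germ cell-like cells (PGCLC). From the E14Tg2a ESC line, 8 libraries were made, namely 2i ESC (0.4 µM PD0325901, 3 µM CHIR99021 and LIF), S+L ESC (15% serum and LIF), epiblast-like cells after 1, 2 and 3 days (d1, d2 and d3 EpiLC), epiblast stem cells (EpiSC), and embryoid bodies (EB) grown from d2 EpiLC for 2 and 4 days (d2 and d4 EB). EpiLC and EpiSC medium held 20 ng/ml Activin A, which signals through the same SMADs as Nodal, and 12 ng/ml bFGF, whereas EB medium held 0.5 µg/ml BMP4, 0.1 µg/ml SCF, 50 ng/ml EGF and 1000 U/ml LIF. From the R1 ESC line, d4 EB of the parental cells (WT) and of dCD cells gave 1 library each. The dCD cells are 1 R1-derived line in which point mutations remove the methyltransferase activity of MLL3 and MLL4, the enzymes that place H3K4me1 at enhancers, while both proteins remain present. Within the E14Tg2a EB, 135 cells listed by the study as PGCLC were set against the other cells of the same library.

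Each condition was 1 library, so no difference between conditions could be tested. Intervals in parentheses after a value are exact 95% intervals and cover counting error only. A ratio was called where it was at least 2-fold on the log2(CPM + 1) scale with at least 10 UMIs over both groups. The E14Tg2a libraries held 227 to 537 cells with a median of 21658 to 36750 UMIs per cell. The WT and dCD libraries held 1416 and 1699 cells with medians of 13188 and 11751 UMIs. Shares of cells with a UMI are therefore given after thinning each cell to 15374 UMIs (E14Tg2a) or 6831 UMIs (R1). The summed pluripotency markers *Pou5f1*, *Sox2* and *Nanog* were at 839 to 1829 CPM in the 6 ESC, EpiLC and EpiSC libraries, at 1171 and 1379 CPM in the listed d2 and d4 PGCLC, and at 272 and 21.3 CPM in the other cells of those EB. The summed germ cell markers (*Prdm1*, *Prdm14*, *Tfap2c*, *Dppa3*, *Nanos3* and *Dnd1*) were at 455 and 407 CPM in the listed d2 and d4 PGCLC and at 43.2 and 51.7 CPM in the other EB cells. Of all barcodes, 8 occurred in more than 1 E14Tg2a library and 0 in both R1 libraries.

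In the mouse genome (GRCm38) *Lefty1* (chr1:180935022-180938400) and *Lefty2* (chr1:180893108-180899103) lie on the same strand, 35919 bases apart, as neighbouring paralogs of 4 exons each. Reads of such a pair can be confused, and 17.9% of the 50-base words of the *Lefty1* transcript were also found in *Lefty2*. In the last 500 bases, near where a 3′ library reads, this share was 2.44% for *Lefty1* and 0% for *Lefty2*. *Gdf3* (chr6:122605403-122610087, minus strand, 2 exons) lies 16323 bases from the germ cell gene *Dppa3* and 97402 bases from *Nanog*. *Nodal* (chr10:61417972-61425338, plus strand) has 3 exons, and *Cer1* (chr4:82881751-82885148, minus strand) has 2. *Tdgf1* (chr9:110939603-110946158, minus strand) has 6 exons and 2 pseudogenes named for it, so that its reads may be split or lost. None of the 6 genes overlaps another annotated gene.

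The 250 bases before the transcription start are shown for the 3 members that the RefSeq promoter table (GRCm38.p6) holds, because Nodal signalling reaches its target genes through FOXH1 and SMAD proteins. They lie at chr10:61417722-61417971 (plus strand), chr9:110946159-110946408 (minus strand) and chr4:82885152-82885401 (minus strand). *Lefty1*, *Lefty2* and *Gdf3* were not matched. Capitals mark the FOXH1 motif AATNNACA and the SMAD box CAGAC, both searched on both strands.
Nodal: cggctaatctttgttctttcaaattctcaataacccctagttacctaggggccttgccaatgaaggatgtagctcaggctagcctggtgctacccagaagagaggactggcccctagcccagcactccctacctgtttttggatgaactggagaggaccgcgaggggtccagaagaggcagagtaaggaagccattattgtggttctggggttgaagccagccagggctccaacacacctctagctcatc
Tdgf1: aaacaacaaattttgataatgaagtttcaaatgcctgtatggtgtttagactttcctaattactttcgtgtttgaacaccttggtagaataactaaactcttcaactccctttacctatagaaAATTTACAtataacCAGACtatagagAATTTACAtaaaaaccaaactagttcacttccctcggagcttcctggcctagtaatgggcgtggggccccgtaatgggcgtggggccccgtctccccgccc
Cer1: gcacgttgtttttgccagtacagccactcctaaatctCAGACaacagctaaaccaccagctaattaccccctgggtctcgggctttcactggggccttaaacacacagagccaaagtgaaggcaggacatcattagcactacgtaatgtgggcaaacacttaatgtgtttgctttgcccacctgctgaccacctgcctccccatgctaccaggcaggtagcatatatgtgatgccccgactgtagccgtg
The *Tdgf1* window held 2 FOXH1 matches, which began 127 and 101 bases before the start, with a SMAD box beginning 113 bases before it, between them. The FOXH1 motif was found in 10.9% of all 32817 windows of this length and the SMAD box in 42.2%, and 0.405% held at least 2 FOXH1 matches together with a SMAD box. The *Cer1* window held 1 SMAD box, 213 bases before the start, and no FOXH1 match. Neither motif occurred in the *Nodal* window. The TATA box TATAAA occurred in none of the 3 windows and in 12.4% of all windows. GC content was 53.2% for *Nodal*, 42.0% for *Tdgf1* and 51.6% for *Cer1*, beside a median of 52.4% over all windows.

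*Nodal*, the ligand that gives the pathway its name, was highest in d2 EpiLC. Its level was 20.3 CPM in 2i ESC and 19.7 CPM in S+L ESC, 34.7, 58.1 and 31.9 CPM in EpiLC on days 1, 2 and 3, and 26.2 CPM in EpiSC. The listed PGCLC had 20.5 CPM on day 2 and 38.9 CPM on day 4, against 6.23 and 2.11 CPM in the other cells of the same libraries. The d2 EpiLC interval (53.7 to 62.7) lay above all others, and the levels from d4 PGCLC down to S+L ESC formed a run in which the intervals of neighbours overlapped. No step between successive stages of the adherent cultures reached 2-fold, since d1 EpiLC were 1.71-fold (1.43 to 2.05) above 2i ESC, d2 EpiLC 1.67-fold above d1 EpiLC and d3 EpiLC 1.82-fold below d2 EpiLC. *Nodal* was detected in 51.2% of thinned d2 EpiLC, 26.0% of 2i ESC and 31.9% of EpiSC. In the other d4 EB cells, where the members were lowest, thinned shares ran from 0.683% for *Gdf3* to 5.46% for *Lefty1*, with 2.05% for *Nodal*.

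*Gdf3*, the second ligand, was highest in d1 EpiLC and nearly absent from EpiSC. Its level was 72.4 CPM in 2i ESC and 51.7 CPM in S+L ESC, 88.5, 41.8 and 20.9 CPM in EpiLC on days 1, 2 and 3, and 0.705 CPM (9 UMIs) in EpiSC. The listed PGCLC had 54.5 CPM on day 2 and 69.2 CPM on day 4, and the other EB cells 1.54 and 0.468 CPM (18 and 4 UMIs). From d1 to d2 EpiLC it was 2.12-fold (1.89 to 2.37) lower, and EpiSC were 29.6-fold (15.4 to 65.4) below d3 EpiLC. EpiSC and the 2 sets of other EB cells formed the lowest run with overlapping intervals, and the levels of 2i ESC, both PGCLC sets and S+L ESC formed another below d1 EpiLC. The share of thinned cells with a *Gdf3* UMI went from 73.8% in d1 EpiLC to 25.4% in d3 EpiLC and to 1 of 361 EpiSC.

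*Tdgf1*, the co-receptor that lets Nodal reach its receptors, was detected in all 223 thinned 2i ESC and all 293 thinned S+L ESC. It stood at 974 CPM in S+L ESC and 393 CPM in 2i ESC, at 218, 212 and 204 CPM in EpiLC on days 1, 2 and 3, and at 170 CPM in EpiSC. The listed PGCLC had 55.2 CPM on day 2 and 255 CPM on day 4, and the other EB cells 3.58 and 3.16 CPM. The ESC cultures therefore differed 2.48-fold (2.38 to 2.58), whereas d1, d2 and d3 EpiLC had overlapping intervals. Among single cells the highest count was 142 UMIs in an S+L ESC and 39 in a 2i ESC.

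The inhibitor genes *Lefty1* and *Lefty2* had different patterns over the same cells. *Lefty1* stood at 38.8 CPM in 2i ESC, 29.1 CPM in S+L ESC, 216, 479 and 135 CPM in EpiLC on days 1, 2 and 3, and 698 CPM in EpiSC. In the EB it stood at 88.3 and 31.3 CPM in the listed PGCLC of days 2 and 4 and at 5.04 and 3.98 CPM in the other cells. *Lefty2* stood at 26.7 CPM in 2i ESC, 10.4 CPM in S+L ESC, 39.6, 45.8 and 14.8 CPM in EpiLC on days 1, 2 and 3, and 18.2 CPM in EpiSC. In the EB it stood at 46.0 and 31.3 CPM in the listed PGCLC and at 18.9 and 1.64 CPM in the other cells. *Lefty1* was thus highest in EpiSC, whereas for *Lefty2* the levels of d2 PGCLC, d2 EpiLC, d1 EpiLC, d4 PGCLC and 2i ESC followed each other in falling order, with intervals that overlapped between neighbours in that order. *Lefty1* was called at every step of the adherent cultures, with d1 EpiLC 5.57-fold (4.97 to 6.26) above 2i ESC, d2 EpiLC 2.22-fold (2.11 to 2.33) above d1 EpiLC, d3 EpiLC 3.54-fold (3.36 to 3.73) below d2 EpiLC and EpiSC 5.15-fold (4.90 to 5.42) above d3 EpiLC. *Lefty2* was called at 1 of these steps, being 3.09-fold (2.62 to 3.64) lower in d3 than in d2 EpiLC, and was 2.57-fold (2.03 to 3.27) lower in S+L than in 2i ESC. Both inhibitors and *Nodal* were thus at their highest among EpiLC on day 2, and all 3 were lower on day 3. *Lefty1* counts were uneven between cells, and the highest single-cell counts were 192 UMIs in a d2 EpiLC and 330 in an EpiSC.

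**Figure D1:**
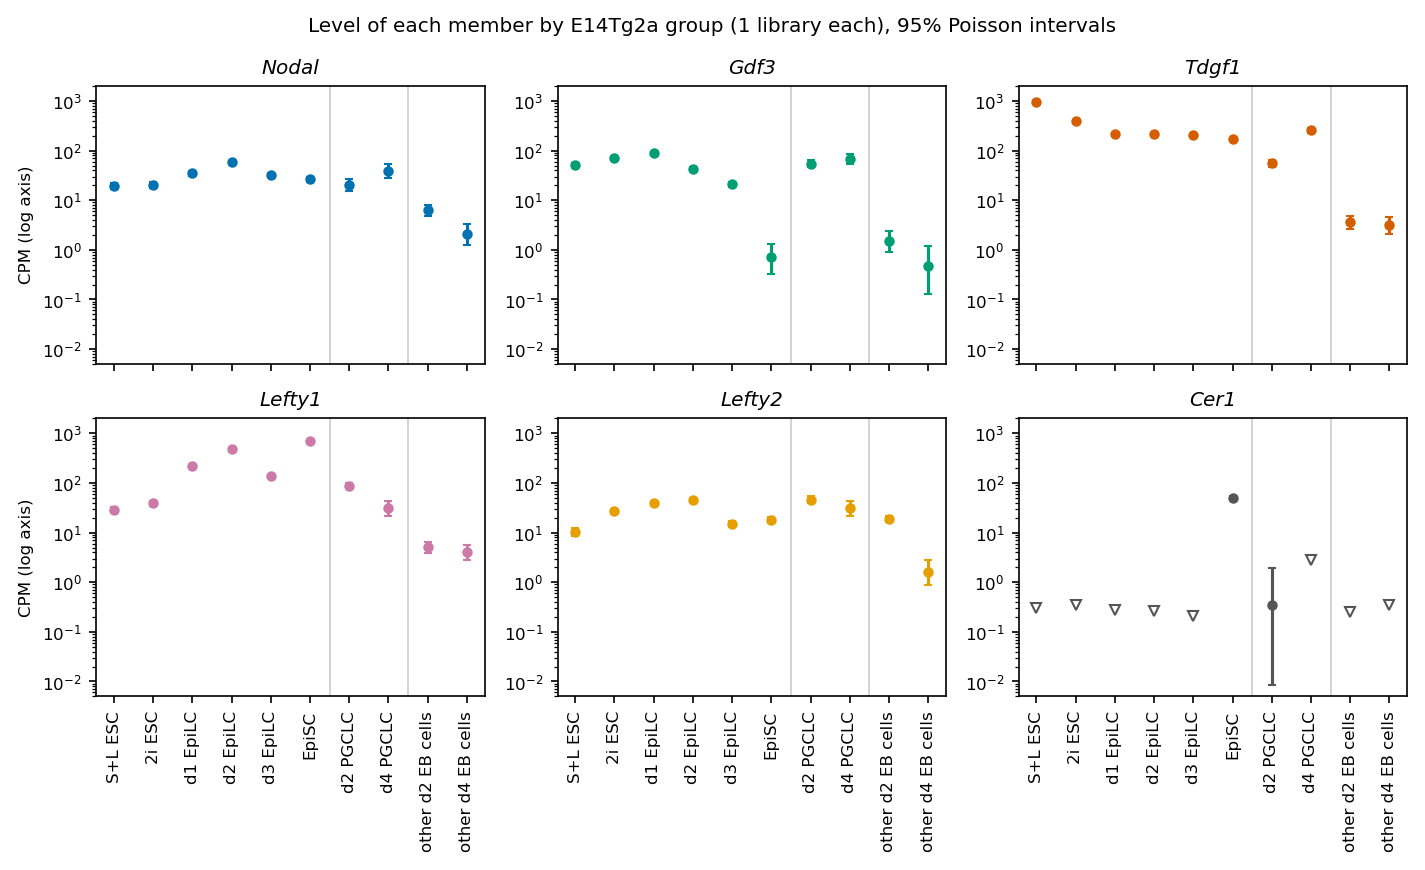
Level of each of the 6 genes (CPM, log axis, with exact 95% intervals for counting error) in the 10 sets of E14Tg2a cells; vertical lines part the adherent cultures, the listed PGCLC and the other EB cells, and open triangles mark 3 counts where no UMI was found. *Nodal* is highest in d2 EpiLC (58.1 CPM), *Lefty1* in EpiSC (698 CPM), *Tdgf1* in S+L ESC (974 CPM) and *Gdf3* in d1 EpiLC (88.5 CPM), and *Cer1* stands out in EpiSC alone (49.4 CPM).

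*Cer1* was found in EpiSC and hardly anywhere else. It gave 631 UMIs in EpiSC (49.4 CPM, 45.7 to 53.5), 1 UMI in a single d2 PGCLC and none in the 6 other E14Tg2a libraries, where 3 counts would be 0.213 CPM in d3 EpiLC and 0.343 CPM in 2i ESC. EpiSC were therefore at least 232-fold above d3 EpiLC, taken at 3 counts over the group. *Cer1* UMIs were found in 72 of 373 EpiSC (19.3%), and in 50 of 361 after thinning (13.9%), and the 10% of EpiSC with most *Cer1* UMIs held 90.7% of them. Neither R1 library held a *Cer1* UMI, which allows up to 0.146 CPM in WT and 0.131 CPM in dCD.

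In the adherent cultures each step called 1 to 3 of the members tested. From 2i ESC to d1 EpiLC 1 of 5 members tested was called higher (12.1% of all genes tested) and 0 lower (6.54%), and from d1 to d2 EpiLC 1 was called higher (9.91%) and 1 lower (6.28%). From d2 to d3 EpiLC 2 of 5 were called lower (3.10%) and 0 higher (3.44%). From d3 EpiLC to EpiSC 2 of 6 were called higher (7.95%) and 1 lower (6.37%), and in S+L against 2i ESC 1 of 5 was called higher (9.73%) and 1 lower (2.41%). *Cer1* had too few UMIs to be tested in all of these but the EpiSC step.

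The *Cer1*-positive EpiSC also carried genes of the anterior streak and definitive endoderm. These are cells of 1 library, split by the UMI of 1 member after the *Cer1* values had been seen, so their values are a description. Among 50 thinned EpiSC with a *Cer1* UMI, *Lhx1*, a gene of the anterior streak, was detected in 45 (78.2% to 96.7% by the interval), and among the 311 without it in 28 (6.07% to 12.7%). *Gsc*, a homeobox gene of the organizer, was detected in 84.0% against 17.4%, and *Hhex*, a gene of anterior endoderm, in 40 of the 50 against 13.8%. The endoderm transcription factor genes *Foxa2*, *Gata6* and *Sox17* were detected in 74.0%, 70.0% and 64.0% of the *Cer1*-positive cells and in 15.8%, 5.47% and 3.86% of the others. As a level in CPM, *Sox17* was 25.6-fold (17.4 to 38.7), *Lhx1* 21.5-fold and the co-receptor gene *Cfc1* 19.6-fold (11.7 to 34.2) higher in the *Cer1*-positive cells. The visceral endoderm genes *Ttr* and *Afp* were detected in 2 and 0 of the 50 cells, and *Sox7* in 0. The pluripotency genes *Pou5f1*, *Sox2* and *Nanog* were at 584, 42.9 and 14.3 CPM in the *Cer1*-positive cells and at 1390, 136 and 47.9 CPM in the others. Median depth before thinning was 35596 UMIs with and 31497 UMIs without *Cer1*.

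Of the other members, the inhibitor genes had the larger ratios in the *Cer1*-positive EpiSC. *Lefty1* stood at 1432 CPM with and 560 CPM without *Cer1*, which is 2.56-fold (2.38 to 2.74), and *Lefty2* at 37.7 and 19.2 CPM, which is 1.96-fold (1.24 to 3.00). *Tdgf1* was at 209 and 168 CPM, a ratio of 1.25 (1.04 to 1.48). *Nodal* was at 27.3 and 28.0 CPM, a ratio of 0.975 (0.584 to 1.55), so that no difference was detectable at this depth.

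**Figure D2:**
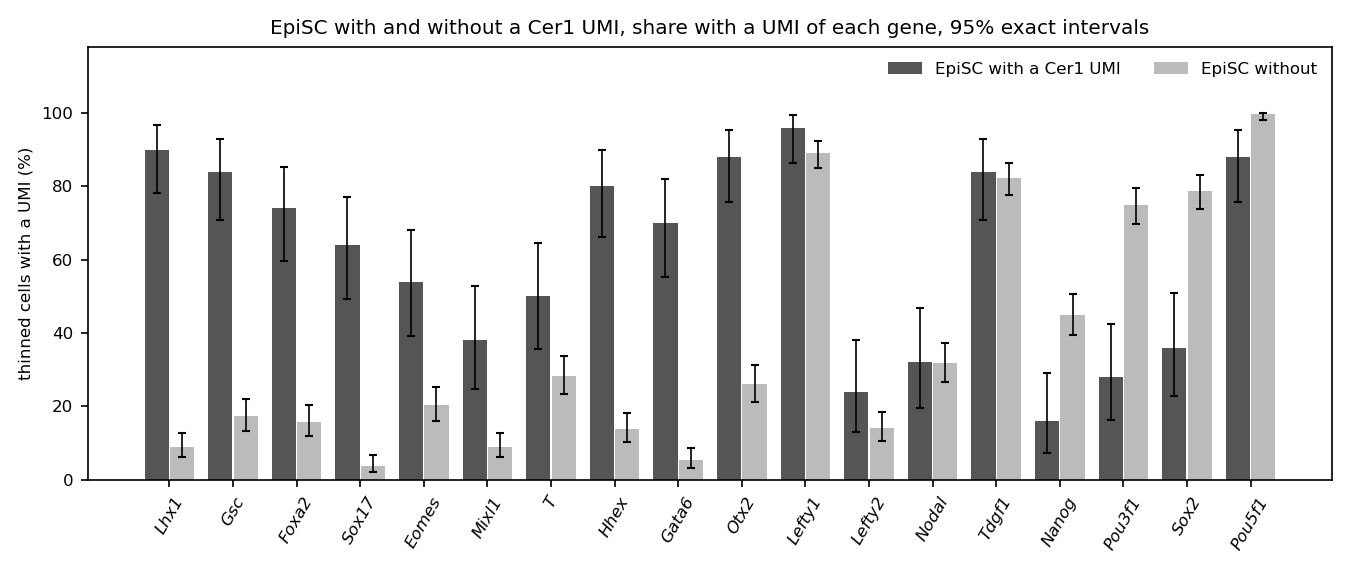
Share of thinned EpiSC with a UMI of each gene (percent, with exact 95% intervals) in the 50 cells with and the 311 cells without a *Cer1* UMI. *Gsc* is at 84.0% and 17.4%, *Sox17* at 64.0% and 3.86%, and *Nodal* at 32.0% and 31.8%.

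Entry into the EB parted the members. Against the d2 EpiLC from which the EB were grown, the listed d2 PGCLC had 2.84-fold (2.18 to 3.76) less *Nodal*, 3.85-fold (3.28 to 4.54) less *Tdgf1* and 5.43-fold (4.79 to 6.17) less *Lefty1*, so that 3 of 5 members tested were called lower (11.3% of all genes tested) and 0 higher (9.13%). *Gdf3* was 1.31-fold (1.08 to 1.57) higher, and *Lefty2* was at 46.0 and 45.8 CPM, a ratio of 1.0 (0.825 to 1.22). From d2 to d4 PGCLC, *Tdgf1* was 4.62-fold (3.79 to 5.65) higher and *Lefty1* 2.82-fold (1.96 to 4.19) lower, 1 call in each direction (5.98% and 12.5% of genes tested). *Nodal* was 1.90-fold (1.25 to 2.87) higher on day 4, under the call, on 41 and 60 UMIs.

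Within the EB, all 5 detected members were higher in the listed PGCLC than in the other cells on both days. The listed cells had been chosen by clustering these same cells, and *Nodal*, *Lefty1*, *Tdgf1* and *Gdf3* belong to gene sets the study derived from them, so these ratios describe the listed cells and are not independent evidence of a difference. On day 2 the ratio was 3.28 (2.29 to 4.68) for *Nodal*, 35.5 (21.8 to 61.4) for *Gdf3* and 15.4 (10.9 to 22.2) for *Tdgf1*. For the inhibitors it was 17.5 (13.2 to 23.7) for *Lefty1* and 2.44 (1.96 to 3.04) for *Lefty2*. On day 4 it was 18.5 (10.4 to 34.1) for *Nodal*, 148 (55.4 to 557) for *Gdf3*, 80.8 (54.3 to 125) for *Tdgf1*, 7.87 (4.72 to 13.1) for *Lefty1* and 19.1 (9.95 to 38.6) for *Lefty2*. All 5 members tested were called higher on each day, beside 6.06% of all genes on day 2 and 8.64% on day 4, and 0 were called lower (10.3% and 31.3%). When EB cells with at least 2 of 4 germ cell markers took the place of the listed cells, the ratios were smaller for *Gdf3* (12.1 and 29.7 on days 2 and 4) and *Tdgf1* (4.62 and 6.55), and larger for *Lefty2* (log2 ratios of 1.71 and 4.52, against 1.29 and 4.26 with the listed cells). *Lefty1* had log2 ratios of 4.52 and 2.54, against 4.13 and 2.98, and *Nodal* of 1.40 and 2.94, against 1.72 and 4.21. All 5 members stayed above a ratio of 1 on both days.

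The members differed in how far they were kept to the listed cells. On day 2 the listed PGCLC were 91 of 537 cells and held 20.0% of all UMIs, yet 89.9% of the *Gdf3* UMIs, 81.4% of the *Lefty1* UMIs and 79.4% of the *Tdgf1* UMIs. *Nodal* with 45.1% and *Lefty2* with 37.9% were found mostly outside them. On day 4 the listed PGCLC were 44 of 368 cells and held 10.98% of all UMIs, 94.8% of the *Gdf3* UMIs, 90.9% of the *Tdgf1* UMIs, 70.2% of the *Lefty2* UMIs, 69.5% of the *Nodal* UMIs and 49.3% of the *Lefty1* UMIs. *Lefty1* was thus among the genes most confined to the listed cells on day 2 and was the least confined on day 4, whereas *Lefty2* was the least confined on day 2.

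**Figure D3:**
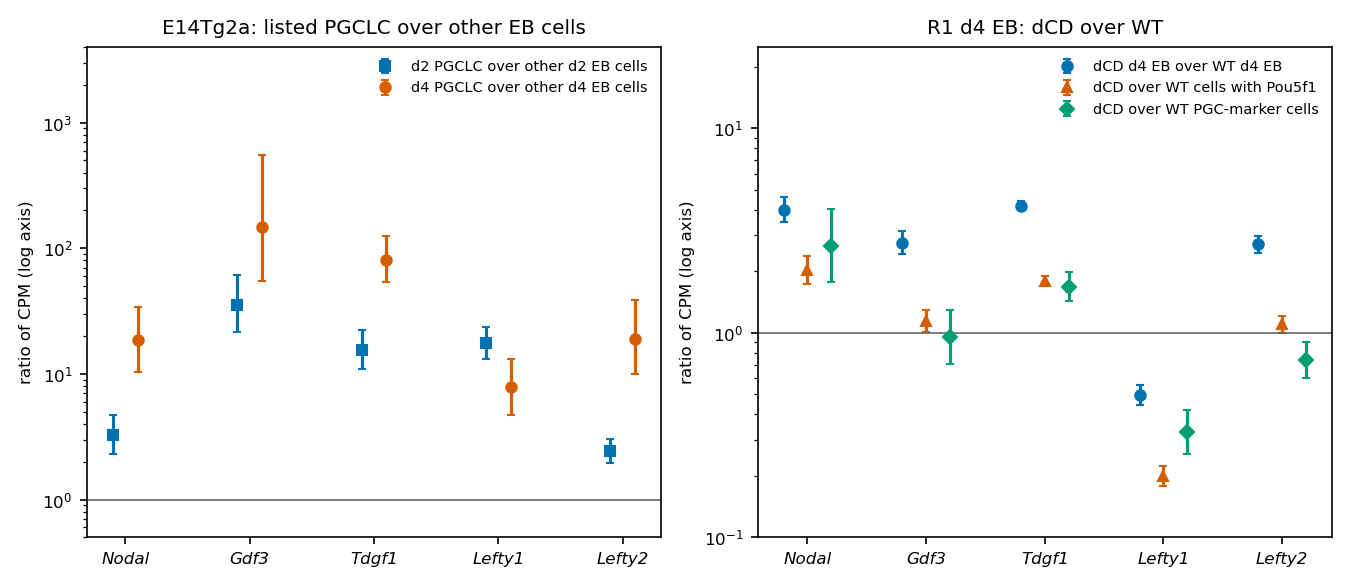
Ratio of CPM (log axis, with exact 95% intervals for counting error) for the members in each comparison. The ratios of listed PGCLC over other EB cells reach 148 for *Gdf3* on day 4, and in dCD over WT EB *Tdgf1* (4.19) and *Nodal* (4.01) lie above 1 while *Lefty1* (0.498) lies below it.

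In the other d2 EB cells, the streak and early mesoderm genes *T*, *Mesp1* and *Mixl1* were found more often in cells with a *Lefty2* UMI than in those without. Of 428 such thinned cells, 53 had a *Lefty2* UMI. The streak and mesoderm gene *T* (brachyury) was detected in 60.4% (46.0 to 73.5) of these and in 23.2% (19.0 to 27.8) of the 375 without *Lefty2*, and *Mesp1*, a gene of early mesoderm, in 71.7% against 42.1%. *Mixl1* was detected in 34.0% against 14.1% and *Bmp4* in 83.0% against 55.7%, whereas the extraembryonic mesoderm gene *Foxf1* was detected in 32.1% against 48.8%. *Hand1* was nearly universal, at 94.3% and 97.6%. Among the same cells, 18 of the 32 with a *Nodal* UMI (56.2%, 37.7 to 73.6) also had *Lefty2*, against 8.84% of those without *Nodal*. Median depth was 21491 UMIs in the cells with *Lefty2* and 24819 in those without.

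In R1 d4 EB, 4 members were higher in dCD than in WT and *Lefty1* was lower. *Nodal* stood at 12.0 CPM in WT and 48.1 CPM in dCD, which is 4.01-fold (3.49 to 4.62). *Gdf3* stood at 15.8 and 43.7 CPM, 2.76-fold (2.43 to 3.14), and *Tdgf1* at 74.9 and 314 CPM, 4.19-fold (3.97 to 4.43). *Lefty2* was at 29.7 and 80.4 CPM, 2.71-fold (2.47 to 2.97) higher, whereas *Lefty1* was at 41.6 and 20.7 CPM, 2.01-fold (1.79 to 2.25) lower. On the log2(CPM + 1) scale *Lefty1* came to -0.97 and was not called, although it was with a pseudocount of 0.1 CPM, in thinned cells and as a mean over cells. Of the 5 members tested, 4 were called higher (6.31% of all genes tested) and 0 lower (3.68%). The paralogs *Lefty1* and *Lefty2* therefore differed in opposite directions between these libraries.

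The libraries also differed in their make-up, and in summed libraries fewer cells of a type and less RNA per cell cannot be told apart. The summed pluripotency markers were at 323 CPM in WT and 664 CPM in dCD, the extraembryonic mesoderm markers (*Hand1*, *Foxf1*, *Tbx4*, *Pitx1* and *Bmp4*) at 944 and 224 CPM, and the extraembryonic ectoderm markers (*Esx1*, *Elf5*, *Rhox6*, *Rhox9* and *Cdx2*) at 48.5 and 218 CPM. *Pou5f1* UMIs were found in 399 of 1416 WT cells (28.2%) and in 1209 of 1699 dCD cells (71.2%). These cells held 99.7% of the *Gdf3* UMIs, 99.1% of the *Lefty1* UMIs, 96.2% of the *Tdgf1* UMIs, 94.4% of the *Lefty2* UMIs and 74.5% of the *Nodal* UMIs of WT, beside 31.2% of all UMIs. In dCD they held 991 of 1101 *Nodal* UMIs and 92.2% to 98.9% of the UMIs of the other 4 detected members, beside 74.7% of all UMIs.

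Within the cells with a *Pou5f1* UMI, a set added after the data were seen, the picture was another. *Gdf3* was at 50.5 CPM in WT and 57.8 CPM in dCD, a ratio of 1.14 (1.01 to 1.30), and *Lefty2* was at 89.9 and 99.2 CPM, a ratio of 1.10 (1.004 to 1.22). *Tdgf1* was at 231 and 413 CPM, 1.79-fold (1.69 to 1.89), and *Nodal* at 28.6 and 57.9 CPM, 2.03-fold (1.73 to 2.38) higher but under the call on the log2(CPM + 1) scale. *Lefty1* was at 132 CPM in WT and 26.4 CPM in dCD, 5.0-fold (4.45 to 5.62) lower. In the same cells the summed germ cell markers were at 324 CPM in WT and 126 CPM in dCD, the extraembryonic mesoderm markers at 384 and 137 CPM, and the extraembryonic ectoderm markers at 64.5 and 166 CPM, and their part in these ratios was not tested. Of the 5 members tested, 1 was called lower (2.68% of all genes tested) and 0 higher (5.78%). The difference in *Lefty1* was thus larger within the *Pou5f1*-positive cells than over the whole EB, and those in *Gdf3* and *Lefty2* were smaller.

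**Figure D4:**
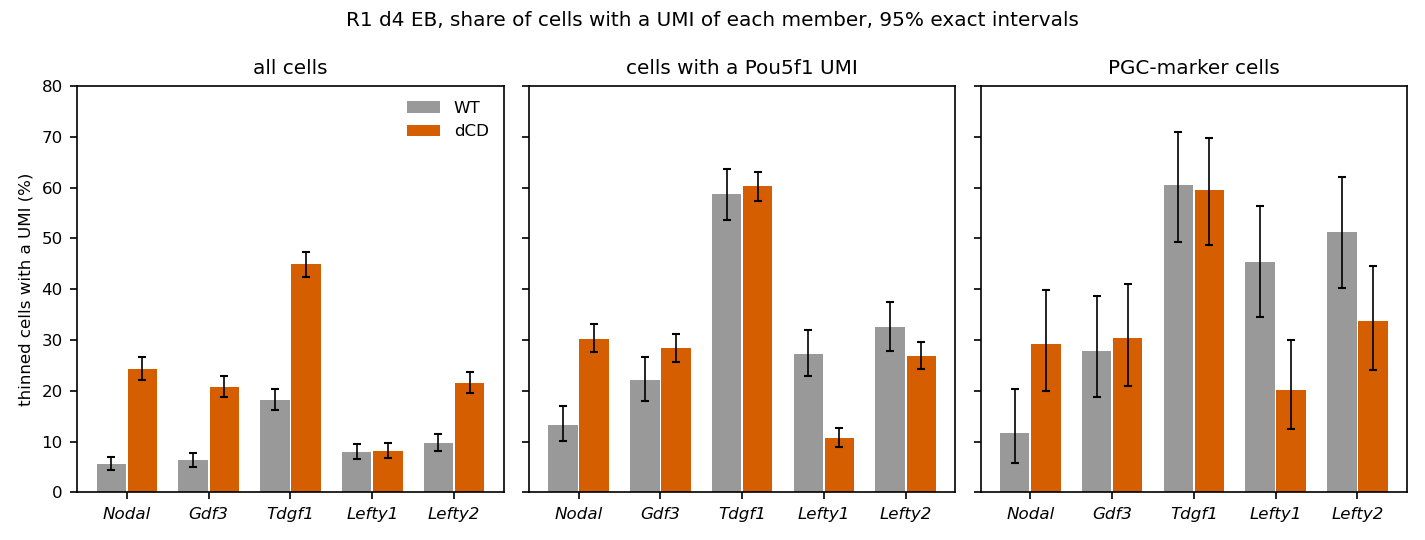
Share of thinned R1 d4 EB cells with a UMI of each member (percent, with exact 95% intervals) in WT and dCD, over all cells, cells with a *Pou5f1* UMI and PGC-marker cells. Over all cells *Nodal* is at 5.56% in WT and 24.3% in dCD, and within cells with *Pou5f1* *Lefty1* is at 27.3% and 10.7%.

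The shares of cells with a UMI differed in the direction of the levels for 4 members over the whole EB. In thinned cells, *Nodal* was detected in 5.56% of WT and 24.3% of dCD cells, *Gdf3* in 6.30% and 20.8%, *Tdgf1* in 18.2% and 44.9%, and *Lefty2* in 9.74% and 21.6%. *Lefty1* was detected in 7.91% and 8.18%, with 4.09 UMIs per positive cell in WT and 1.78 in dCD. Within the *Pou5f1*-positive cells, both its share (27.3% in WT and 10.7% in dCD) and its UMIs per positive cell (4.18 and 1.84) were lower in dCD. *Tdgf1* shares within the *Pou5f1*-positive cells were 58.7% in WT and 60.3% in dCD, with overlapping intervals, although its level was higher in dCD. Among WT cells without a *Pou5f1* UMI, which serve as the background for pluripotency genes, the thinned shares were 2.55% for *Nodal*, 0.102% for *Gdf3*, 2.34% for *Tdgf1*, 0.306% for *Lefty1* and 0.815% for *Lefty2*. In dCD cells without *Pou5f1* they were 9.26%, 1.62%, 5.79%, 1.85% and 8.10%. All 5 members were thus found at higher shares in dCD than in WT cells without a *Pou5f1* UMI. Their levels there were 4.45 CPM in WT and 19.0 CPM in dCD for *Nodal*, 0.0706 (1 UMI) and 1.90 CPM for *Gdf3*, 4.17 and 22.1 CPM for *Tdgf1*, 0.565 and 3.97 CPM for *Lefty1*, and 2.40 and 24.9 CPM for *Lefty2*. With *Pou5f1* at 0 by selection, *Sox2* and *Nanog* together were at 9.32 CPM in WT and 36.1 CPM in dCD in these cells. The part of these pluripotency markers in the values of the members was not tested. A cell without a *Pou5f1* UMI may still express the gene below detection.

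In the PGC-marker cells of the EB, taken here as cells with at least 1 *Dppa3* or at least 2 *Prdm1* UMIs and no *Klf4* UMI, 86 WT and 97 dCD cells were found, of which 85 and 89 had a *Pou5f1* UMI. *Nodal* was at 24.9 CPM in WT and 66.0 CPM in dCD, 2.65-fold (1.78 to 4.02) higher. *Gdf3* was at 63.4 and 60.4 CPM, a ratio of 0.953 (0.701 to 1.30), and *Tdgf1* was at 175 and 295 CPM, 1.68-fold (1.44 to 1.98) higher. *Lefty1* was at 190 and 62.5 CPM, 3.04-fold (2.39 to 3.91) lower, and *Lefty2* at 165 and 122 CPM, 1.35-fold (1.11 to 1.66) lower. The study gives thresholds for these genes without their scale, which were read as UMIs. Read on a log scale, these thresholds gave log2 ratios of dCD over WT of 1.37 for *Nodal*, -1.45 for *Lefty1* and -0.90 for *Lefty2*. Over all alternative settings for these cells, the log2 ratio ran from -0.90 to -0.08 for *Lefty2* and from -0.13 to 0.41 for *Gdf3*. Of the 5 members tested 1 was called higher (13.6% of all genes tested) and 1 lower (3.78%). The gate caught cells of unequal germ cell marker content, since the 6 germ cell markers summed to 712 CPM in WT and 441 CPM in dCD, and the extraembryonic ectoderm markers to 116 and 561 CPM. The gate itself uses *Dppa3* (232 and 179 CPM) and *Prdm1* (103 and 60.4 CPM). Outside it, *Tfap2c* was at 215 and 147 CPM, *Dnd1* at 80.5 and 17.4, *Nanos3* at 69.1 and 22.9, and *Prdm14* at 12.8 and 14.6. The part of these markers in the ratios of the members was not tested.

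Outside the gate 4 of 5 members were called higher in dCD (6.75% of genes tested) and 0 lower (3.97%). The largest of these ratios was 4.67 (4.40 to 4.96) for *Tdgf1*, followed by 4.24 for *Nodal*, 3.91 for *Lefty2* and 3.45 for *Gdf3*, and *Lefty1* was at 30.7 CPM in WT and 17.9 CPM in dCD. *Lefty1* was the member that was lower in dCD over all cells, with *Pou5f1*, inside the gate and outside it, where it was not called. Outside the gate its log2 ratio ran from -0.96 to -0.24 under the alternatives. In cells without a *Pou5f1* UMI it was higher in dCD, at 0.565 CPM in WT and 3.97 CPM in dCD (8 and 23 UMIs).

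The number of *Lefty1* UMIs for each *Lefty2* UMI summarised how far the paralogs parted. In the adherent cultures it was 1.45 (1.23 to 1.72) in 2i ESC, 2.80 in S+L ESC, 5.47, 10.5 and 9.12 in EpiLC of days 1, 2 and 3, and 38.4 (33.7 to 43.9) in EpiSC. In the EB it was 1.92 (1.55 to 2.38) in d2 PGCLC and 1.0 (0.598 to 1.67) in d4 PGCLC, 0.267 (0.197 to 0.357) in the other d2 cells and 2.43 (1.27 to 4.90) in the other d4 cells. EpiLC and EpiSC lay above 5, and both ESC cultures and all EB sets below 3. Stage, medium and growth as EB differ together between these sets and cannot be told apart. In R1 EB it was 1.40 (1.26 to 1.55) in WT and 0.257 (0.232 to 0.285) in dCD. Within cells with *Pou5f1* it was 1.47 and 0.266, and within the PGC-marker cells 1.16 (0.966 to 1.38) and 0.514 (0.394 to 0.667), so WT lay above dCD in each set with intervals that did not overlap.

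The same cells tended to hold both paralogs in the R1 EB. Among WT cells with *Pou5f1*, *Lefty2* was detected in 62.9% (52.9 to 72.1) of those with a *Lefty1* UMI and in 21.1% (16.4 to 26.3) of those without. In dCD the shares were 62.4% (53.0 to 71.2) and 22.7% (20.1 to 25.4). These shares had overlapping intervals in WT and dCD, while the share of *Lefty2*-positive cells that also had *Lefty1* was 52.8% (43.7 to 61.8) in WT and 24.7% (19.9 to 30.1) in dCD. Among E14Tg2a cells, *Lefty2* was detected in 46.0% of d1 EpiLC with and 21.2% of those without *Lefty1*, in 40.4% and 22.8% of 2i ESC, and in 33.9% and 8.66% of S+L ESC. In d2 EpiLC, where most cells had *Lefty1*, these shares were 44.8% and 45.5%, the latter of 33 cells. *Tdgf1* and *Gdf3*, both expressed in ESC, also went together, since *Tdgf1* was detected in 68 of 85 WT *Pou5f1*-positive cells with *Gdf3* and 52.7% of those without, and in 86.2% and 50.0% in dCD.

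In WT EB, *Gdf3* and *Lefty1* differed in the markers of the cells that held them. Of 86 thinned WT cells with *Gdf3*, 88.4% (79.7 to 94.3) had *Zfp42*, a gene of naive ESC, whereas of 108 with *Lefty1*, 26.9% (18.8 to 36.2) had it. *Dnd1*, which encodes a germ cell RNA-binding protein, was found in 47.2% (37.5 to 57.1) of the *Lefty1*-positive cells and in 16 of the 86 *Gdf3*-positive ones. *Pou5f1* was found in 96.3% and 96.5% of them. In dCD, 125 cells had *Lefty1*, and of these 10.4% (5.65 to 17.1) had *Dnd1*, 12.0% had *Prdm1* and 87.2% had *Pou5f1*. The corresponding share with *Prdm1* in WT was 35.2% (26.2 to 45.0). *Lefty1*-positive dCD cells therefore held *Dnd1* and *Prdm1* at lower shares than *Lefty1*-positive WT cells. Over all cells with *Pou5f1*, the summed germ cell markers were also lower in dCD (126 CPM) than in WT (324 CPM). Of 686 dCD cells with *Tdgf1*, 61.4% had *Nanog* and 65.5% had *Zfp42*, against 12.2% and 17.0% of those without.

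Cells that held several members at once were most frequent in early EpiLC. At least 3 of the 6 members were detected in 74.9% of thinned d1 EpiLC and 76.7% of d2 EpiLC, in 43.9% of 2i ESC, 41.1% of d3 EpiLC, 41.0% of EpiSC and 28.3% of S+L ESC. In the EB this was so for 27.5% of d2 PGCLC and 47.4% of d4 PGCLC, and for 1.87% of the other d2 cells and 0 of the 293 other d4 cells. In R1 the share was 6.00% of WT and 16.2% of dCD cells, and 21.3% and 22.2% of those with *Pou5f1*. R1 cells were thinned to 6831 UMIs and E14Tg2a cells to 15374, so these shares cannot be compared between the lines.

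The remaining genes of the pathway were read from a list of 44 that also held receptors, convertases, transducers, further inhibitors and downstream targets. Without the members, 36 were tested in dCD against WT EB, of which 4 were called higher (beside 6.31% of all genes) and 3 lower (3.68%), with a median log2 ratio of 0.01 beside 0.03 over all genes. Higher were *Inhbb*, which encodes an activin subunit (0.826 CPM in WT and 4.94 CPM in dCD, 5.98-fold), *Pcsk6*, a convertase that can process Nodal (2.77 and 15.0 CPM, 5.41-fold), *Otx2* (5.78 and 23.9 CPM, 4.14-fold) and *Dact2* (2.56-fold). Lower were the co-receptor gene *Cfc1* (3.51-fold), the convertase gene *Pcsk5* (5.0-fold) and *Tmem88* (2.70-fold). None of the 8 intracellular transducers, such as *Smad2*, *Smad4* and *Foxh1*, and none of the 4 receptors tested was called. Within the cells with a *Pou5f1* UMI, 2 of 35 tested were called higher (5.78% of all genes) and 4 lower (2.68%). There WT and dCD stood at 2.18 and 5.79 CPM for *Inhbb*, 7.77 and 18.9 for *Pcsk6*, and 17.7 and 28.7 for *Otx2*. *Dact2* was at 5.29 and 8.77 CPM, *Cfc1* at 2.64 and 1.23, *Pcsk5* at 4.66 and 1.70, and *Tmem88* at 22.5 and 17.2. The part of make-up in the whole-EB ratios was not tested.

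From d3 EpiLC to EpiSC, 8 of 10 downstream targets were called higher, beside 7.95% of all genes tested. *T* was 297-fold (116 to 1094, on 4 UMIs in d3 EpiLC), *Gsc* 173-fold (73.8 to 534), *Sox17* 103-fold, *Fgf8* 17.0-fold and *Eomes* 12.2-fold above d3 EpiLC, and *Mixl1* at least 79.8-fold. *Foxa2* and *Lhx1* rested on 1 and 2 UMIs in d3 EpiLC, with ratios of 649 (116 to 25673) and 497 (137 to 4112). *Otx2* was 2.08-fold lower, and the co-receptor gene *Cfc1* was 26.7-fold (13.8 to 59.2) higher, on 218 and 9 UMIs. The inhibitor genes *Fst* (3.28-fold) and *Pmepa1* (2.56-fold) were higher with *Lefty1* and *Cer1*, whereas the inhibitor gene *Tmem88* was lower (39.4 CPM in d3 EpiLC and 16.5 CPM in EpiSC). None of the 8 transducers was called. From 2i ESC to d1 EpiLC, 8 of 27 tested list genes other than the members were called higher (12.1% of all genes) and 4 lower (6.54%). *Skil* (6.20-fold) and *Otx2* (6.86-fold) were among those higher. *Dact2* (20.9 CPM in 2i ESC and 3.36 CPM in d1 EpiLC) and *Pcsk6* (15.8 and 3.73 CPM) were among those lower.

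In the listed PGCLC the other pathway genes were called in both directions. On day 2, 7 of 31 tested were called higher (beside 6.06% of all genes) and 4 lower (10.3%) than in the other EB cells, with a median log2 ratio of -0.15 beside -0.11 over all genes, and on day 4, 5 of 26 were called higher (8.64%) and 12 lower (31.3%), with a median of -0.79 beside -0.46. Taking genes without a UMI in a group at 3 counts, the medians became -0.07 and -0.37. *T* (2.65-fold), *Fgf8* (2.60-fold), *Fst* (2.69-fold) and *Tgif2* (2.35-fold) were higher on day 2, and *Cfc1* (4.07-fold), *Tmem88* (4.76-fold) and *Mixl1* (2.69-fold) lower. On day 4 the SMAD co-repressor genes *Tgif1* (4.53-fold) and *Tgif2* (2.22-fold) were higher, and *Furin* (3.18-fold), *Tgfbr1* (3.58-fold) and *Pmepa1* (18.4-fold, on 1 UMI in the PGCLC) lower. From d2 to d4 PGCLC, *T* was at least 44.6-fold lower, with 372 UMIs on day 2 and 0 on day 4, and *Fgf8* was at 259 and 0.948 CPM.

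Over the 10 sets of E14Tg2a cells, the genes whose log2(CPM + 1) pattern was most like that of a member, out of 9385 genes with at least 10 CPM somewhere, were as follows. *Cer1* was most like *Foxa2* (Pearson's r = 0.989), *Apln* (0.949) and *Lhx1os* (0.946), a pattern that a single high library sets. *Nodal* was most like *Dbf4* (0.976), *Deptor* (0.965) and *Ide* (0.959), and *Gdf3* most like the zinc finger genes *Zfp988* (0.981), *Zfp985* (0.970) and *Zfp982* (0.967). *Tdgf1* was most like *Pipox* (0.962), *Chchd10* (0.960) and *Cisd1* (0.957). *Lefty1* was most like *Abhd14a* (0.986), *Tspan5* (0.955) and *Snrpn* (0.941), and *Lefty2* most like *Rbm8a* (0.95), *Srfbp1* (0.944) and *Glud1* (0.940). No member was among the closest to another, and the highest r between members was 0.813, between *Nodal* and *Tdgf1*. The points share libraries and media, and most of these names differed under another measure of likeness.

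The WT d4 EB of both lines can be set side by side, although cell line, kit version and table differed. E14Tg2a d4 EB stood at 6.14 CPM for *Nodal*, 8.02 for *Gdf3*, 30.8 for *Tdgf1*, 6.98 for *Lefty1* and 4.89 for *Lefty2*, and R1 WT d4 EB at 12.0, 15.8, 74.9, 41.6 and 29.7 CPM in the same order. *Tdgf1* held the most UMIs of the 6 genes in both, and *Cer1* held none in either.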

How the data were processed

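Single-cell RNA was captured with 10x Genomics droplets, v2 chemistry for E14Tg2a and v3 for R1. The deposited values are UMI counts per gene and cell, with no scaling by the authors after counting. For E14Tg2a the authors merged 8 libraries with Cell Ranger 2.1.0, which thins reads to equal depth per cell, against mm10 (GRCm38), so depth differences between these libraries are partly removed. For R1 the authors kept cells with at least 2000 genes, and the alignment tool is not given in the sources used here. Each E14Tg2a cell was assigned to its stage by the barcode suffix, which the study's list of PGCLC barcodes ties to a stage, and all 135 listed barcodes were found.

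UMIs were summed over the cells of each group and scaled to CPM with Python 3.11.15, numpy 2.4.6, pandas 2.3.3 and scipy 1.17.1. Levels carry exact Poisson, ratios exact conditional and shares Clopper-Pearson 95% intervals, which cover counting error only. A count of 0 was taken to allow 3 counts. With 1 library per condition no test was made. Cells were thinned to 15374 UMIs (E14Tg2a, 116 cells left out) or 6831 UMIs (R1, 220 cells left out), the 10th percentile of the shallowest library. Scrublet in scanpy 1.11.5 called 0.441% to 7.61% of cells of a library doublets. Doublets stayed in, and an alternative removed them. The procedure was tested on simulated counts. The members and the lists of markers and pathway genes were chosen with earlier results of these data known. The gate for PGC-marker cells reads the thresholds of the study, which have no stated scale, as UMIs. Genes named were the 6 members, pathway genes with a call and at least 50 UMIs over both groups, the 3 genes most like each member, and the markers, with 1 pathway gene not reported here. Alternatives covered scaling, pseudocount, fold, count minimum, thinning, doublets and gates.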

Additional observations from a re-analysis of the deposited data

Results flagged for a closer look

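*Lefty2* differed from WT in opposite directions in the sets of dCD cells. In the PGC-marker cells its level in dCD was 0.739 of that in WT (0.603 to 0.903), and in all other cells it was 3.91 times that in WT (3.50 to 4.38). Under the alternative settings the first of these ratios ran from 0.538 to 0.947. *Pou5f1* UMIs were found in 28.2% of WT and 71.2% of dCD cells, and within these cells the *Lefty2* ratio was 1.10 (1.004 to 1.22). The part of this difference in make-up in the ratio of 3.91 was not tested. The 86 WT and 97 dCD PGC-marker cells come from the same 2 libraries as the other cells, and the difference between these ratios was not tested. In the PGC-marker cells the summed germ cell markers, which include the gate genes *Dppa3* and *Prdm1*, were at 712 CPM in WT and 441 CPM in dCD. How far this difference enters into the *Lefty2* ratio of these cells was not tested.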

How the results depend on the processing

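No paired analysis was possible because each condition was 1 library, and no replicate could be left out. Of 305 values of member ratios under an alternative, none reversed a call, 189 of 189 kept the direction where the ratio was at least 2-fold, and 111 of 116 did where it was smaller. Of the 305, 39 fell outside the interval of the main ratio. Among 260 counts of pathway genes called, 49 changed by more than 1.5-fold or to or from 0. At 1.5-fold in place of 2-fold, members called were 2 higher and 1 lower from 2i ESC to d1 EpiLC, 2 higher from d1 to d2 EpiLC, 4 lower from d2 to d3 EpiLC, 2 higher from d2 to d4 PGCLC and 1 lower in dCD EB, and pathway genes called lower were 7 in d2 PGCLC and 6 in dCD EB. At 3-fold, members called were 0 higher and 0 lower from d1 to d2 EpiLC, 1 lower from d2 to d3 EpiLC, 0 higher and 0 lower in S+L against 2i ESC, 0 lower from d2 to d4 PGCLC, 3 higher in d2 PGCLC against other EB cells and 2 higher in dCD EB, and pathway genes were 5 higher and 2 lower in d2 PGCLC and 5 higher and 1 lower in dCD EB. With at least 50 UMIs, 6 pathway genes were higher in d4 PGCLC, where fewer genes are tested. Size factors, a total without the 100 most abundant genes, and thinning each gave 2 members higher from d2 to d4 PGCLC, the second being *Nodal*. A pseudocount of 0.1 CPM, a mean over cells, and thinning each gave 1 member lower in dCD EB, which was *Lefty1*.

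Against the other EB cells, the log2 ratio of d2 PGCLC in thinned cells was 4.99 for *Lefty1* and 0.95 for *Lefty2*, and with cells holding 2 of 4 germ cell markers it was 3.602 for *Gdf3*, 2.21 for *Tdgf1* and 1.71 for *Lefty2*. For d4 PGCLC it was 9.17 for *Gdf3* and 5.44 for *Lefty2* without doublets, and 2.94 for *Nodal*, 4.89 for *Gdf3* and 2.71 for *Tdgf1* with the marker gate. In dCD over WT EB it was 2.15 for *Tdgf1* with the total without the most abundant genes, -1.18 for *Lefty1* as a mean over cells and 1.64 for *Lefty2* in thinned cells. For these the cause was not tested. Of the 3 genes most like a member, Spearman's rho kept 1 for *Nodal*, 0 for *Gdf3*, 1 for *Tdgf1*, 0 for *Lefty1*, 0 for *Lefty2* and 1 for *Cer1*, and the 8 undivided libraries kept 0 for *Nodal*, 1 for *Gdf3*, 0 for *Tdgf1*, 1 for *Lefty1*, 1 for *Lefty2* and 2 for *Cer1*. Shares of cells depended on depth, and 191 of 226 shares moved by more than their interval when unthinned or counted from 2 UMIs. Members found in the same cells were compared as differences in share between cells with and without another member. Of 350 such differences, 121 moved beyond the reach of the interval when cells were left unthinned. Depth was low in d4 PGCLC, where *Nodal* had 41 UMIs and *Lefty1* and *Lefty2* 33 each.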
